A study of Homo sapiens with 22 samples.

Results

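CTCF positions in HFFc6 fibroblasts were compared with a second CTCF peak list whose name points to human embryonic stem cells. HFFc6 is subclone c6 of HFF-hTERT, foreskin fibroblasts made immortal with telomerase, and carries no other stated treatment. CTCF was mapped there by Cut&Tag, in which an antibody brings the transposase Tn5 to the protein so that it cuts the DNA nearby. The 2 libraries, whose titles begin with HFF1 although their cell line label is HFFc6, gave 1 merged list. The series has 22 libraries, and no label among them describes the other list, termed here the hESC-named list. Its assay, cell line and number of libraries are not stated in any source used here, so differences between lists may come from assay or depth as well as from the cells, and these cannot be told apart. On chromosomes 1 to 22 and X the HFFc6 list held 82297 regions and the hESC-named list 104785, together 187082 of the 534085 regions in the 4 deposited lists. A region was termed shared if it overlapped the other list by 1 bp or more, and otherwise HFFc6-only or hESC-list-only. Each list is a single call without values per library, so no test between the lists was possible. Intervals are Wilson 95% intervals of a share, or 95% intervals of a median from order statistics, and cover counting error over regions that are not independent.

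CTCF is a zinc-finger protein that reads a long asymmetric DNA motif, and it stops the cohesin ring as that ring extrudes chromatin loops. The direction of the motif decides from which side cohesin is held, so pairs of sites facing each other anchor loops and bound topological domains. Many CTCF sites are occupied in most cell types, whereas others are bound in only some, often where DNA methylation or closed chromatin keeps the protein away elsewhere. AP-1, the dimer of Fos and Jun proteins, recognises another short motif and opens enhancers in fibroblasts.

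Sequence could be read in RefSeq promoter windows (GRCh38.p14, 250 bases before to 50 after a gene start), and 4 examples show CTCF core letters where both lists held a region. They are the 4 with the highest HFFc6 fold enrichment among 233 windows holding 1 match clear of the start. Capitals mark the match to the core letters (CCA, any 2 bases, AG, any 2 bases, GGC), or to their reverse complement, and each line runs 5′ to 3′ on the strand of the gene.
KIF1B: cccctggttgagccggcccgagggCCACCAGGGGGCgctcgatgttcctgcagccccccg
SLC14A2: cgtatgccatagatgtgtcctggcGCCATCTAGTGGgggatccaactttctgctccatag
KATNBL1: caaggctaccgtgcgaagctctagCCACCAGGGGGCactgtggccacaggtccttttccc
EARS2: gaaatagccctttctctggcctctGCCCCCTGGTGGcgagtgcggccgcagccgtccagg
The lines come from hg38 chr1:10210323-10210382 (plus strand, upstream of KIF1B, a kinesin motor), chr18:45212890-45212949 (plus strand, urea transporter SLC14A2), chr15:34210168-34210227 (minus strand, katanin regulatory protein KATNBL1) and chr16:23557480-23557539 (minus strand, mitochondrial glutamyl-tRNA synthetase EARS2). KIF1B and KATNBL1 held the same capital letters, and EARS2 held their reverse complement. The capitals of SLC14A2 and EARS2 are read on the opposite strand from the gene. At KIF1B the HFFc6 region had a fold enrichment, the peak caller's signal over its background, of 20.6, and its summit lay at -40.5 bp from the centre of the letters, negative being the 5′ side. The hESC-named region there had a fold enrichment of 22.4 in its own list, with its summit at -112.5 bp.

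Only the hESC-named list held a region over the next 4 windows, the strongest by its fold enrichment among 24 such windows.
MACC1: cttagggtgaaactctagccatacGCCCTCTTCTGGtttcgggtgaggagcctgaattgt
MYO5B: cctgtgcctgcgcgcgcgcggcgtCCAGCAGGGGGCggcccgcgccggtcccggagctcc
GSTA2: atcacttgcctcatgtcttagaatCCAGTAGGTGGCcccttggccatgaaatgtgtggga
TLR6: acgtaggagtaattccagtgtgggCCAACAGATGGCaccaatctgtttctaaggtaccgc
They lie at chr7:20217520-20217579, chr18:50195234-50195293, chr6:52763570-52763629 and chr4:38856858-38856917, all on the minus strand. MACC1 is a regulator of MET transcription, MYO5B an unconventional myosin of epithelial vesicle transport, GSTA2 a glutathione transferase and TLR6 a Toll-like receptor. Their hESC-named regions had fold enrichments of 21.4, 17.8, 14.7 and 10.1 in that order, and the summits lay at 10.5, -55.5, 43.5 and -105.5 bp from the centre of the letters.

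Windows with an HFFc6 region and no hESC-named region were searched for the AP-1 letters TGACTCA, a motif chosen after the data had been seen. The 4 with the highest HFFc6 fold enrichment among 103 are shown, with TGACTCA or its reverse complement in capitals.
LMNTD1: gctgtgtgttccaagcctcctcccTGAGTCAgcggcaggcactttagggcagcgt
IL1RN: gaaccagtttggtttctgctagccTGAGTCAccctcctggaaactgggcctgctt
NPLOC4: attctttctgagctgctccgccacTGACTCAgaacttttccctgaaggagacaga
TBC1D1: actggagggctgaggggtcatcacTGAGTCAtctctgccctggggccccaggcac
These lie at chr12:25648666-25648720 (minus strand), chr2:113117724-113117778 (plus), chr17:81566704-81566758 (minus) and chr4:38119861-38119915 (plus). IL1RN encodes the antagonist of the interleukin-1 receptor, NPLOC4 a cofactor of the segregase VCP, and TBC1D1 a Rab GTPase-activating protein. The HFFc6 fold enrichments were 15.04 at LMNTD1, 15.01 at IL1RN, 11.9 at NPLOC4 and 11.8 at TBC1D1. In that order the HFFc6 summits lay at 94, 85, -92 and -208 bp from the centre of the letters.

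Promoter windows were classed by the regions over the window itself, so HFFc6 alone here is not the HFFc6-only class. Windows with HFFc6 alone belonged to 2289 genes, whereas 1113 genes had a region within 1 kb of a start in HFFc6 alone. An hESC-named region may thus lie close to such a window. Over all 22132 promoter windows of 15812 protein-coding genes, CTCF core letters were present in 2.52% (558 windows, either strand). Where both lists held a region they were present in 361 of 10412 windows (3.47%, 3.13 to 3.84), and where the hESC-named list alone held one, in 39 of 1544 (2.53%, 1.85 to 3.43). Windows with a region in HFFc6 alone had them in 30 of 2746 (1.09%, 0.766 to 1.56), below the 1.72% of 7430 windows with no region in either list. The windows differed in base composition, with a median GC content of 65.3% (both), 68.2% (HFFc6 alone), 62% (hESC-named alone) and 52.7% (neither). Among windows of 55 to 70% GC, a restriction added after seeing the data, the shares were 3.41% (both), 1.17% (HFFc6 alone), 2.36% (hESC-named alone) and 3.11% (neither). The low share in windows with HFFc6 alone was therefore present there too, while the gap between windows with both lists and with neither was small. With stricter letters (CCA, any 2 bases, AGG, any base, GGC), all of whose matches also match the first set, the shares were 1.68%, 0.364%, 1.10% and 0.740% in the same order, and 1.16% over all windows.

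AP-1 letters had another order. They were present in 192 of the 2746 windows with HFFc6 alone (6.99%, 6.10 to 8.01), against 253 of 10412 with both (2.43%, 2.15 to 2.74) and 39 of 1544 with the hESC-named list alone (2.53%, 1.85 to 3.43). Windows with neither list held them in 5.42%, and all windows in 4.01%. Among windows of 55 to 70% GC the shares were 7.31% for HFFc6 alone, 2.41% for both, 2.64% for the hESC-named list alone and 4.72% for neither. TGACTCA and the CTCF letters share no fixed stretch, and a match describes the window only.

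At promoter matches, summits, the base of highest signal within each region, lay farther to the 3′ side of the CTCF letters in HFFc6 than in the hESC-named list. Of promoter matches inside a region of both lists, 286 distinct positions could be oriented along the motif. The lists also placed summits differently around gene starts, and matches on the gene's strand and the opposite strand were not separated. At 55 to 70% GC the letters were nearly as frequent in windows with neither list (3.11%) as with both (3.41%). How many of the 286 matches are bound by CTCF was not tested. The HFFc6 summit lay at a median of 28 bp to the 3′ side of the motif centre (0.5 to 37.5), on that side in 161 and on the 5′ side in 125. The hESC-named summit lay at a median of -29 bp, that is to the 5′ side (-52.5 to -11.5), with 169 on the 5′ side and 117 on the 3′ side. Within 20 bp of the motif centre lay 43 hESC-named and 22 HFFc6 summits. Taken pairwise, the HFFc6 summit was farther 3′ by a median of 50 bp (32 to 68), in 181 of 286 pairs, and farther 5′ in 102. With the stricter letters the HFFc6 median over 141 positions was 26.5 bp with an interval that includes 0 (-1.5 to 39.5), the hESC-named median -50.5 bp (-74.5 to -24.5) and the pairwise difference 64 bp (47 to 93). Where only the hESC-named list held a region, 18 of 28 summits lay within 100 bp of the motif centre, and where only HFFc6 did, 4 of 22.

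**Figure D1:**
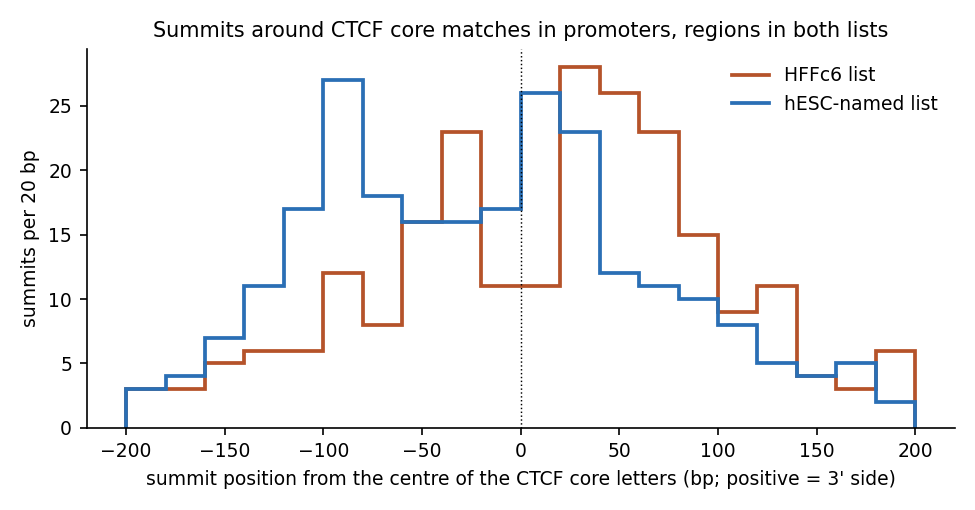
Number of summits per 20 bp (y axis) against the distance from the centre of the CTCF core letters, read along the motif (x axis, bp, positive to the 3′ side), for 286 promoter matches inside regions of both lists. The HFFc6 line (red-brown) is highest between 20 and 40 bp on the 3′ side with 28 summits, and has 23 between 20 and 40 bp on the 5′ side. The hESC-named line (blue) has 27 between 80 and 100 bp on the 5′ side and nearly as many, 26, between 0 and 20 bp on the 3′ side.

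The overlap was close to 1 region for 1. Of HFFc6 regions 41907 were shared (50.9%, 50.6 to 51.3) and of hESC-named regions 43302 (41.3%, 41.0 to 41.6), leaving 40390 HFFc6-only and 61483 hESC-list-only regions. Among shared HFFc6 regions, 39926 (95.3%) paired with a single hESC-named region that overlapped no other, 1503 spanned 2 and 55 spanned 3 or more. HFFc6 regions were wider (median 696 bp, range 252 to 4361) than hESC-named regions (median 496 bp, range 163 to 2699). In the 1 to 1 pairs the median overlap was 562 bp, and the hESC-named region lay wholly inside its partner in 33.8%. When sharing was defined by summits within 100 bp in place of overlap, the shares were 26.2% for HFFc6 and 20.6% for the hESC-named list.

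Chromosome 19, which is dense in genes, had the highest sharing in both lists, 64.5% of HFFc6 and 58.6% of hESC-named regions. The lowest shares were 44.0% on chromosome 21 for HFFc6 and 32.3% on chromosome 18 for the hESC-named list, and the medians over chromosomes were 50.2% and 40.2%. Chromosome X was the most uneven in number, with 3209 hESC-named and 1910 HFFc6 regions. That ratio of 1.68 compares with 1.27 over all chromosomes and 1.10 on chromosome 22, the lowest. On X, 59.8% of HFFc6 regions were shared and 36.4% of hESC-named regions. The numbers of X chromosomes behind the lists were not tested.

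The strongest regions were mostly in both lists. Of the 100 HFFc6 regions with the highest fold enrichment 88 were shared, of the top 1000 941, and of the top 10000 8717. The hESC-named list gave 93, 923 and 8567. Over the 39926 pairs, Spearman's rho across regions was 0.384 for fold enrichment and 0.341 for width, a description of ranks over regions that are not independent. The strongest shared HFFc6 region, fold enrichment 37.5, lay at chr17:43251452-43252268, 20437 bp from an end of CCDC200 and 123 bp from the snRNA gene LOC124904138, with the 2 summits 1 bp apart. Next were a pair of regions near the snRNA genes SNAR-C4 and SNAR-A1 on chromosome 19 (33.2 and 29.7), 1 inside the lncRNA LOC112267988 on chromosome 7 (29.1) and 1 in the pseudogene UBE2Q2P2 on chromosome 15 (28.8). Summits of these 5 lay within 7 bp of the hESC-named summit. The strongest HFFc6-only regions overlapped the mitochondrial pseudogene MTCO1P40 (fold enrichment 32.4), the lncRNA LOC105379020 (32.2), RGPD2 (27.95) and LOC124903761 (27.2), and 1 lay 13049 bp from FAHD2A (28.2). Several of these names belong to repeated gene families, and the part of copy number or of reads with several origins was not tested. The strongest hESC-list-only regions lay in FAM86B2-DT (46.9 in that list), between genes on chromosome 8 (37.3), in LOC105369435 near PANX1 (37.1), 48867 bp from the protocadherin PCDH8 (36.2) and in LOC105372185 (35.7).

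Shared regions had close but seldom identical summits. The median distance between summits was 97 bp (96 to 98), with the middle 50% of pairs between 44 and 173 bp. Within 100 bp lay 51.4% of pairs, within 250 bp 85.0%, and 1982 pairs (4.73%) were more than 500 bp apart. Along the genome neither direction prevailed: the HFFc6 summit had the higher coordinate in 49.9% and the lower in 49.8%, and the median signed offset was 0 bp. The distribution was not single-peaked. In the 1 to 1 pairs, bins of 20 bp of absolute offset held 4242 pairs from 0 to 20 bp, 4768 from 20 to 40 bp and 4856 from 40 to 60 bp. They fell to 2958 pairs from 100 to 120 bp, then held 2997 from 120 to 140 bp and 1255 from 180 to 200 bp.

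**Figure D2:**
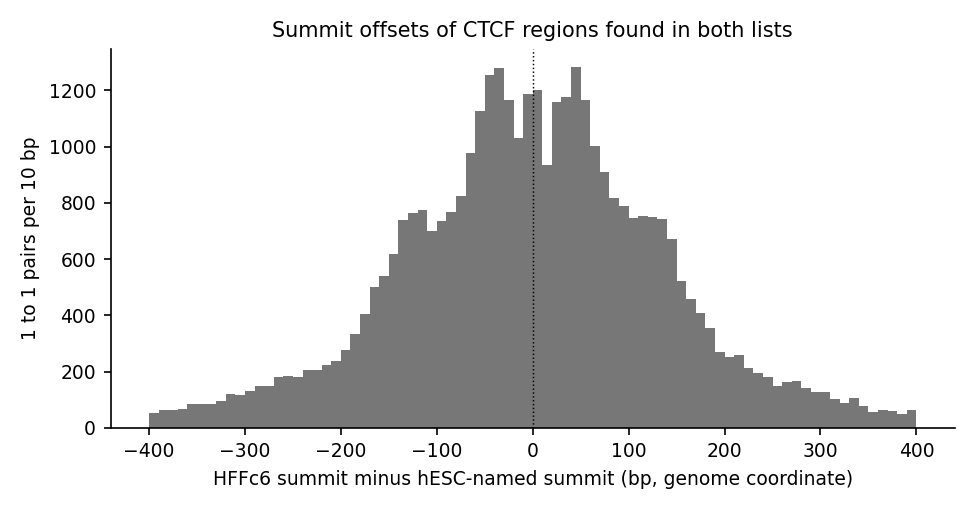
Number of 1 to 1 pairs per 10 bp (y axis) against the HFFc6 summit minus the hESC-named summit in genome coordinates (x axis, bp), for pairs within 400 bp. Peaks of 1281 and 1282 pairs stand 30 to 50 bp to either side of 0, a narrower one at 0 holds 1188 and 1200 pairs on its 2 sides, and shoulders appear near 130 bp.

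Offsets were larger in weak hESC-named regions and in wide HFFc6 regions. Over 5 equal groups by hESC-named fold enrichment the median offset was 134 bp in the weakest and 93, 85, 81 and 92 bp in the others. Offsets over 250 bp made up 27.9% of the weakest group and 6.06% of the strongest. By HFFc6 fold enrichment the medians spanned only 92 to 103 bp, but offsets over 250 bp fell from 19.8% of the weakest group to 8.75% of the strongest. By HFFc6 width the medians were 76 bp in the narrowest of 5 groups and 126 bp in the widest. Because paired regions overlap, their widths limit every offset given here, and a wider region allows a larger one by construction.

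Along the chromosomes, neighbouring HFFc6 summits were closer than neighbouring hESC-named summits although that list had fewer regions. The median gap was 12464.5 bp in HFFc6 and 14541.5 bp in the hESC-named list, whereas the 95th percentile was 110582 bp in HFFc6 and 92558 bp in the hESC-named list. HFFc6 regions thus lay more unevenly, with short gaps and long empty stretches. HFFc6-only summits had the shortest gaps to the next summit of their list (median 11307 bp, 11149 to 11459) and hESC-list-only summits the longest (15935 bp, 15731 to 16145). Shared regions had 13823 bp in HFFc6 and 12922 bp in the hESC-named list. With only regions of −log10 q of at least 10, where q is the peak caller's adjusted p-value, the list-specific medians were 17167 bp in HFFc6 and 26799 bp in the hESC-named list, in the same order.

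Both lists had a step in spacing at 5 kb. HFFc6 had 2769 gaps of 4 to 5 kb and 4049 of 5 to 6 kb, a ratio of 1.46, and the hESC-named list had 3271 and 4520, a ratio of 1.38. For gaps whose stronger neighbour lay among the strongest 1 in 5 by q the ratios were 2.02 and 1.79, and they were 1.15 and 1.07 where it lay among the weakest 1 in 5. The step was thus present in both lists and larger beside strong regions. Its origin in the peak calling or in the genome was not tested.

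**Figure D3:**
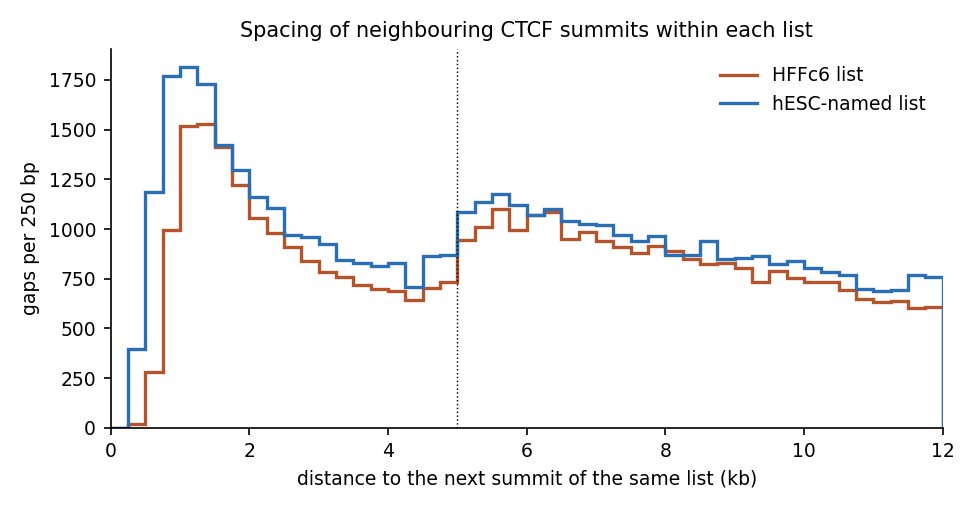
Number of gaps per 250 bp (y axis) between neighbouring summits of the same list against their length (x axis, kb, up to 12 kb), for HFFc6 (red-brown) and the hESC-named list (blue). Both lines peak between 1 and 2 kb, fall to a low between 4 and 5 kb, and rise at the dotted line at 5 kb.

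List-specific regions of the 2 kinds differed in how far they lay from the other list. An HFFc6-only summit lay a median of 7216 bp from the nearest hESC-named summit, with a 95th percentile of 40009 bp, and 175 of 40390 were more than 100 kb away. An hESC-list-only summit lay a median of 14986 bp from the nearest HFFc6 summit, with a 95th percentile of 376156 bp. More than 100 kb from any HFFc6 region lay 10097 (16.4%) of these, and more than 500 kb 2073 (3.37%). HFFc6-only regions therefore lay among hESC-named regions, while a part of the hESC-list-only regions lay in stretches without HFFc6 regions. With −log10 q of at least 10 in both lists the medians were 12382.5 and 20650.5 bp, and with equal numbers of regions 9133 and 15261 bp, in the same order.

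**Figure D4:**
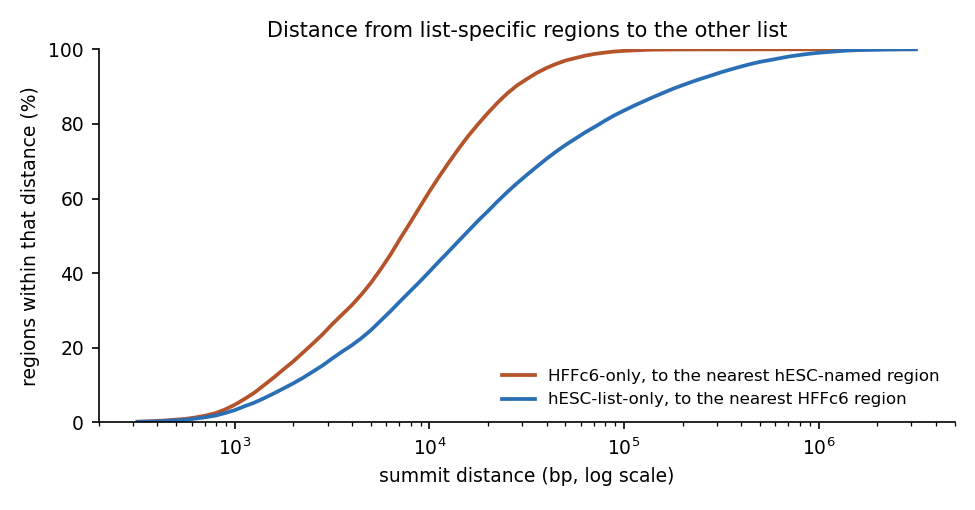
Share of list-specific regions (y axis, %) whose summit lies within a given distance of the nearest summit of the other list (x axis, bp, log scale), HFFc6-only in red-brown and hESC-list-only in blue. At 100 kb the HFFc6-only line has reached 99.6% and the hESC-list-only line 83.6%.

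Ordered along the chromosomes, the 2 lists made 143560 loci, of which 41687 were in both. An hESC-list-only locus was followed by another in 55.3% of cases, beside a share of 42.8% of all loci. The HFFc6-only figures were 39.1% beside 28.1%, and those of loci in both lists 35.2% beside 29.0%. Runs of 10 or more loci of 1 class took in 12643 hESC-list-only loci (20.6%), 376 HFFc6-only loci (0.931%) and 175 loci in both (0.420%). With equal numbers of regions the first 2 shares were 17.0% and 2.21%, and with −log10 q of at least 10 they were 15.9% and 1.44%. Runs of 20 or more occurred in the hESC-list-only class, 204 of them with 6162 loci over 291.7 Mb, and in neither other class.

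The longest hESC-list-only run had 82 regions over 5314 kb of chromosome 5 (chr5:21810427-27124849), a stretch with the cadherin genes CDH12, CDH10 and CDH9 and the meiotic recombination factor PRDM9. Runs of 63 regions over CDH7 and CDH19 (chromosome 18), 62 near PRR20A to PRR20E (chromosome 13), 60 over DPP10 (chromosome 2) and 55 around KHDRBS2, FKBP1C and LGSN (chromosome 6) followed. The last of these spans the centromere. Regions in runs of 20 or more were not weaker than others of their class: the median fold enrichment was 5.89 against 5.01 for regions standing alone. They overlapped open chromatin (ATAC-seq regions) of H1 embryonic stem cells in 69.7% of cases and of HFFc6 in 4.46%, against 61.4% and 16.8% for single regions. Their median distance to a protein-coding gene end was 208 kb, against 18.8 kb.

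HFFc6-only runs were short and dense. The longest had 14 regions within 115 kb over IL1R2 and IL1R1, the decoy and signalling receptors of interleukin-1 (chr2:102026991-102141679), with fold enrichments from 2.74 to 11.8 around a median of 7.06. FBN1, which encodes the microfibril protein fibrillin-1, held 13 over 159 kb (chr15:48536671-48695911), with fold enrichments from 3.25 to 13.1 around a median of 7.52. The others were 13 regions nearest METRNL on chromosome 17, 12 nearest TNFSF18 on chromosome 1 and 12 over the splicing factor gene MBNL1 on chromosome 3. All 14 regions of the IL1R run and all 13 of the FBN1 run overlapped HFFc6 ATAC regions, and 11 did in each of the other 3 runs. These counts lie near the 87.1% of all HFFc6-only regions and the 93.9% of those in runs of 10 or more. Whether open chromatin alone gives such regions in Cut&Tag was not tested.

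In 2894 windows of 1 Mb, hESC-list-only regions outnumbered HFFc6-only regions in 72.3% (2092 windows) and the reverse held in 25.3% (733). With equal numbers of regions the counts were 1521 and 1289, a smaller lean the same way. No HFFc6 region was found in 182 windows, and 113 of these had 10 or more hESC-named regions, with 31 the most. No hESC-named region was found in 8 windows, where HFFc6 had 4 at most. HFFc6-only numbers followed the shared regions: the median per window was 0 in the 1 in 5 windows poorest in shared regions and 26 in the richest, while the hESC-list-only median went from 13 to 27. Spearman's rho with the number of shared regions across windows was 0.800 for HFFc6-only and 0.525 for hESC-list-only regions.

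The windows leaning most to HFFc6 were on chromosome 2 around the collagen gene COL6A3 (70 HFFc6-only and 24 hESC-list-only regions) and on chromosome 9 around COL5A1 and RXRA (55 and 18). A further window of chromosome 9 with NOTCH1 among its 37 protein-coding genes had 74 and 37, the one on chromosome 11 with TEAD1 and PARVA 60 and 24, and the ASAP1 window on chromosome 8 had 53 and 19. Leaning most to the hESC-named list was a window on chromosome 1 with PAX7, a transcription factor of muscle progenitors and neural crest (10 HFFc6-only and 80 hESC-list-only regions). The next were those with CBLN1 and ZNF423 (2 and 50), TAL1, FOXE3 and FOXD2 (5 and 49), SIX3 (9 and 53), and the CD300 receptor cluster (6 and 50).

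Shared regions were the ones near genes. No more than 1 kb from either end of a protein-coding gene lay 27.2% of shared HFFc6 regions (26.8 to 27.6) and 27.6% of shared hESC-named regions, against 7.88% of HFFc6-only (7.62 to 8.15) and 5.91% of hESC-list-only regions (5.73 to 6.10). With −log10 q of at least 10 the HFFc6-only share was 14.1% and the hESC-list-only share 6.14%. The median distance to a gene end was 10.9 kb for shared HFFc6, 25.3 kb for HFFc6-only and 40.4 kb for hESC-list-only regions. More than 100 kb from any gene end lay 17.9% of HFFc6-only and 30.4% of hESC-list-only regions. The body of a protein-coding gene held 59.5% of HFFc6-only, 48.8% of hESC-list-only and 52.2% of shared HFFc6 regions.

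At gene starts, whose direction RefSeq gives, the lists placed their summits differently. Of shared hESC-named summits within 1 kb of a start 70.8% lay upstream, at a median of -100 bp, and of shared HFFc6 summits 57.5%, at a median of -34.5 bp. The fullest 100 bp for the hESC-named list was from 200 to 100 bp upstream, with 2239 summits, whereas HFFc6 had 1544 there and its fullest was the 100 bp after the start, with 1803 against 916. Among list-specific regions the same order held: 61.0% of 2159 hESC-list-only summits lay upstream (median -76 bp) and 45.0% of 1918 HFFc6-only summits (median 30 bp).

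Each list-specific region was given to the gene whose end lay nearest, at any distance, among protein-coding genes only. A count at a gene may thus include regions far from it. The HFFc6-only and hESC-list-only numbers were compared gene by gene. Of 19974 genes, 5573 (27.9%) had more HFFc6-only regions, 8273 (41.4%) more hESC-list-only regions and 6128 equal numbers. With the hESC-named list cut to the length of the HFFc6 list the balance turned, to 7382 and 6158 genes. The lean over all genes therefore depends on list length, and the named genes are given with their own counts.

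The largest HFFc6-only excess was at ASAP1, an Arf GTPase-activating protein of focal adhesions, which had 44 HFFc6-only, 14 hESC-list-only and 12 shared regions. TNS3, a tensin that links integrins to actin, had 47, 21 and 18, and LTBP1, which binds latent TGF-beta in the matrix, had 28, 5 and 7. COL5A1, a chain of the fibril-forming collagen V, had 27 HFFc6-only and 5 hESC-list-only regions, and LPP, a LIM protein of adhesion sites, had 38 and 17. The other 5 were HEMK2, a methyltransferase (34 and 9), the Notch coactivator MAML2 (31 and 9), the FERM protein FRMD6 (29 and 7), the recombination protein RAD51B (45 and 24) and the secreted guidance protein SLIT2 (35 and 14). At LTBP1 and MAML2 nearly all HFFc6-only regions lay inside the gene, 27 of 28 and 30 of 31. The share inside was lowest at HEMK2 (11 of 34), SLIT2 (16 of 35) and TNS3 (23 of 47).

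The largest excess the other way lay at very long genes. RBFOX1, a neuronal splicing regulator of 2474 kb, had 84 hESC-list-only, 3 HFFc6-only and 10 shared regions. PTPRD, a receptor phosphatase of synapses, had 80 and 2, and CNTNAP2, a neuronal adhesion protein, had 76 and 1. AUTS2 had 71 and 7, CSMD3 60 and 0, the teneurin TENM3 75 and 17, CSMD1 55 and 1, and CTNND2, a delta-catenin, 56 and 2. UQCRFS1, a complex III subunit, is the exception in length at 7.83 kb: 60 of its 61 hESC-list-only regions lay outside the gene. Inside the gene lay 23 of 60 at CSMD3 and 32 of 75 at TENM3, against 76 of 84 at RBFOX1. The median length of these 10 genes was 1285 kb, against 367.6 kb for the 10 on the HFFc6 side and 24.2 kb over all genes. Of 314 genes of 500 kb or more, 264 had more hESC-list-only and 46 more HFFc6-only regions, beside 41.4% and 27.9% over all genes. Equal numbers were rare among these long genes, 4 of 314 against 6128 of 19974 over all genes. This group was not tested with lists of equal length. Counting only regions within 50 kb of a gene end, the difference of HFFc6-only minus hESC-list-only regions at PTPRD went from -78 to -1 and at RBFOX1 from -81 to -5. That at ASAP1 went from 30 to 10 and at SLIT2 from 21 to 2. With −log10 q of at least 10, 15 of the 20 differences moved by over 1.5 times, among them HEMK2 from 25 to 9, COL5A1 from 22 to 10 and TENM3 from -58 to -18. At equal numbers of regions 5 did, among them TENM3 to -31 and RAD51B from 21 to 33. The sign of all 20 differences was the same in each of 6 alternative settings.

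Gene lists of the 2 cell types leaned in opposite directions. Of 26 matrix and surface genes of fibroblasts, 21 had more HFFc6-only regions, 3 more hESC-list-only regions and 2 equal numbers, beside 27.9% and 41.4% over all genes, and the median difference was 4 beside 0 over all genes. COL6A3, a collagen VI chain, had 26 HFFc6-only and 5 hESC-list-only regions, and COL5A2 and FBN1 had 22 and 2 each. The adhesion-modulating glycoprotein TNC had 27 and 8, fibronectin (FN1) 16 and 6, COL1A2 13 and 4, and SPARC, a collagen-binding matrix protein, 7 and 0. The exceptions were CCN1 (0 and 3), THY1 (5 and 7) and the growth factor receptor PDGFRA (4 and 7). Of the 249 HFFc6-only regions at this list, 231 overlapped HFFc6 ATAC regions, near the 87.1% of all HFFc6-only regions, and the part of open chromatin in them was not tested.

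Of 23 pluripotency genes, 21 had more hESC-list-only and 2 more HFFc6-only regions, beside 41.4% and 27.9% of all genes, with a median difference of -3. SOX2, a core factor of the network, had 40 hESC-list-only and 0 HFFc6-only regions, the most of the list. DPPA4 had 21 and 2, ZFP42 13 and 5, PRDM14 9 and 1, and NANOG 4 and 0. The exceptions were POU5F1, with 4 HFFc6-only and 2 hESC-list-only regions, and TERT, with 2 and 1. At equal numbers of regions the list had 17 genes leaning to the hESC-named list and 4 to HFFc6, and the fibroblast list 1 and 23. When every region within 50 kb of a gene end was counted, 20 pluripotency genes leaned to the hESC-named list and 3 to HFFc6.

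**Figure D5:**
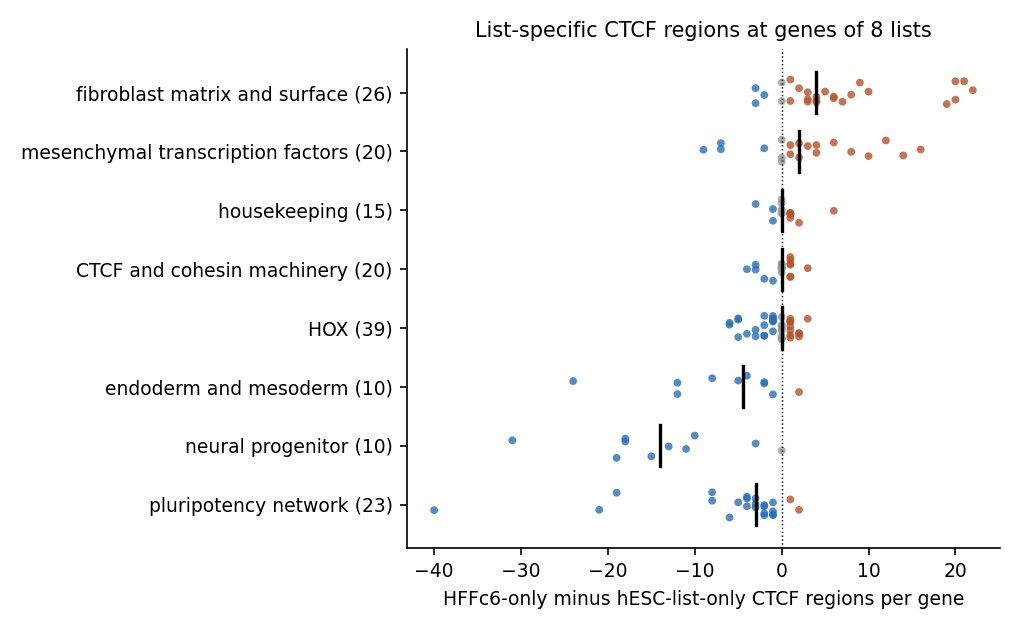
Number of HFFc6-only minus hESC-list-only CTCF regions assigned to each gene (x axis, regions) for 8 gene lists (y axis, number of genes in brackets); each point is a gene, coloured by direction, and the black bar is the median. Fibroblast genes lie mostly to the right, with COL5A1 at 22, pluripotency and neural progenitor genes to the left, with SOX2 at -40 and SOX11 at -31, and housekeeping genes around 0.

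Transcription factors of mesenchymal cells leaned to HFFc6 in 13 of 20 and to the hESC-named list in 4, with 3 equal, beside 27.9% and 41.4% of all genes. RUNX1, a runt-domain factor, had 34 HFFc6-only and 18 hESC-list-only regions, TWIST2 21 and 7, JUN, a part of AP-1, 16 and 4, and RUNX2 15 and 5. Those leaning the other way were TBX15 (4 and 13), OSR1 (7 and 14), TCF21 (1 and 8) and TBX18 (7 and 9). When every region within 50 kb of a gene end was counted, 12 leaned to HFFc6 and 7 to the hESC-named list.

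Genes of neural progenitors leaned to the hESC-named list in 9 of 10, beside 41.4% of all genes, with NES equal at 3 and 3. SOX11 had 31 hESC-list-only and 0 HFFc6-only regions, OTX2 19 and 0, and SOX3 18 and 0. Early endoderm and mesoderm genes leaned to it in 9 of 10, with FOXA2 at 24 and 0, the T-box factor EOMES at 17 and 5 and GATA4 at 13 and 1. Within 50 kb of a gene end, 10 neural genes leaned to the hESC-named list and 0 to HFFc6. For the endoderm and mesoderm genes these counts were 9 and 1. Over all genes 27.9% leaned to HFFc6 and 41.4% to the hESC-named list. Genes of CTCF and cohesin themselves did not share a direction: 7 of 20 leaned to HFFc6, 5 to the hESC-named list and 8 were equal. Housekeeping genes gave 7, 3 and 5 of 15. Both lists depended on the setting: at equal numbers of regions 11 CTCF and cohesin genes leaned to HFFc6 and 4 to the hESC-named list, and within 50 kb 7 and 12, while housekeeping genes gave 7 and 1, and 7 and 6.

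At gene starts the lists were more alike. Of 15812 protein-coding genes, 62.5% had a CTCF region within 1 kb of a start in both lists, 7.04% only in HFFc6 and 7.73% only in the hESC-named list. All 12 housekeeping and all 17 CTCF and cohesin genes with a start in the table had one in both. Of 15 fibroblast genes, 12 had one in both and 2, FBN1 and COL6A3, in HFFc6 alone, while POSTN had none. Of 15 pluripotency genes, 8 had one in the hESC-named list alone, among them NANOG, DPPA4, L1TD1 and CRIPTO, 5 in both and 0 in HFFc6 alone. SOX2 and ZFP42 had none within 1 kb of the start in either list, although SOX2 had the most list-specific regions. An ATAC region lay at 8 of the same 15 starts in H1 alone, at 6 in both lines, at 0 in HFFc6 alone and, for NANOG, in neither. The 15 fibroblast starts had one in both lines at 13 and in HFFc6 alone at 2, and all 12 housekeeping starts in both. A share of ATAC starts over all genes is not given here, so whether these counts are unusual was not tested.

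Open chromatin differed between the list-specific classes. HFFc6-only regions overlapped HFFc6 ATAC regions in 87.1% and H1 ATAC regions in 18.2%, and hESC-list-only regions did so in 14.4% and 64.7%. Shared HFFc6 regions did so in 83.0% and 84.4%. The HFFc6 ATAC list pools more libraries than the H1 list, and the part of library number or depth in these shares was not tested. All 6 fibroblast marker genes with a start in the table had an ATAC region there in both lines, so they cannot tell the lines apart. Of 5 such stem cell markers 2 had one in both, CRIPTO and ZFP42 in H1 alone, and NANOG in neither. Of 2 neural markers 1 had one in both and SOX1 in H1 alone, and the 1 epithelial marker had one in both. These few starts stand without a share over all genes, concern the ATAC lists and do not check the hESC-named CTCF list.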

How the data were processed

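CTCF regions came from 2 deposited peak lists, and ATAC-seq lists of HFFc6 and H1 from the same series served for overlap. BWA, MACS2 and bedtools were used with hg38, per the submitters' processing notes; versions, filters, controls and library depth were not given in the sources used here. The deposited score equals 10 times −log10 q in 100% of regions and was not used further. The deposited fold enrichment (a ratio) and −log10 q-value are the authors' peak caller's, were used to describe, rank or filter within a list, and stop at a q of 0.0499. The deposited summit offset (other) gave the summit position. Regions as deposited did not overlap within a list.

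Overlaps, offsets, gaps, runs, windows and nearest genes were computed with Python 3.11.15, numpy 2.4.6, pandas 2.3.3 and scipy 1.17.1, and tested on simulated data. RefSeq tables of GRCh38.p14 gave 19974 protein-coding genes and 22132 promoter windows, none on chromosome 8. Named in the text are the 10 genes with the largest excess each way, the 5 strongest regions per class, the 5 longest runs and the 5 most uneven windows each way, and members of gene lists. Rule, members and lists were chosen with earlier results of these data known. AP-1 letters, and which regions and bases were shown as sequences, were chosen after seeing values. TDGF1 was matched as CRIPTO. Single values of some genes that the rule names are not reported here. The alternatives are given in the closing section.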

Additional observations from a re-analysis of the deposited data

Results flagged for a closer look

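Outside chromosomes 1 to 22 and X the HFFc6 list held 207 regions and the hESC-named list 259, which no comparison used. They are given because there is no control list to set them against, and nothing was tested on them.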

How the results depend on the processing

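No paired analysis was possible because each list is 1 call without values per library, and for the same reason no replicate could be left out. The depth behind either list is unknown, so a region missing from a list may be below its detection. Motif letters could be searched in promoter windows only. Of 346 values under alternative settings, 232 stayed within the interval or within 1.5 times the reported count and 114 moved; the cause was not tested. Most are counts or shares, which have no sign, and at equal numbers the order of 2 pairs turned: the shared shares, and the genes leaning each way (7382 to HFFc6 and 6158 to the hESC-named list). Alternatives for runs, windows, distances, the 5 kb step, gene lists and motif letters were chosen after seeing the data.

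Shared shares (HFFc6, then hESC-named) were 48.5 and 39.1% at an overlap of 50% of the shorter region, 55.1 and 50.4% at −log10 q of at least 10, 48.9 and 38.6% for 500 bp around the summit, 47.9 and 48.8% at equal numbers, and 26.2 and 20.6% for summits within 100 bp. Median offsets and shares within 100 bp were 92 bp and 53.2%, 90 bp and 54.1%, 91 bp and 53.6%, 95 bp and 52.3% under the first 4 of these, and 95 bp and 52.2% for 1 to 1 pairs.

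Median list-specific gaps were 17167 bp (HFFc6) and 26799 bp (hESC-named) at the stricter q. The hESC-named gap was 15558 bp at 500 bp, 20437.5 bp at equal numbers and 15726.5 bp without X. Median distances to the other list were 6764 and 13830 bp at 50% overlap, 12382.5 and 20650.5 bp at the stricter q, 6840 and 13569 bp at 500 bp, and 9133 and 15261 bp at equal numbers; without X the second was 14558.5 bp.

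Gene end shares of HFFc6-only and hESC-list-only regions were 8.52 and 6.63% at 50% overlap, 14.1 and 6.14% at the stricter q, and 8.92 and 7.87% at 500 bp. For HFFc6-only at equal numbers the share was 9.26%. By construction they moved with the window, to 5.68 and 3.87% at 500 bp of a gene end and 11.4 and 9.13% at 2 kb; shared HFFc6 regions gave 24.8 and 31.1%, and 25.4% for 500 bp regions.

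Runs of 10 or more held 1.44% (stricter q) and 2.21% (equal numbers) of HFFc6-only loci. For hESC-list-only loci the shares were 19.9% (50% overlap), 15.9% (stricter q), 19.7% (500 bp), 17.0% (equal numbers) and 20.1% (without X). At equal numbers 1289 windows leaned to HFFc6. Of the 20 named genes, 15 moved by over 1.5 times at the stricter q, 5 at equal numbers and 19 within 50 kb. In the gene lists, equal numbers gave 4 pluripotency genes leaning to HFFc6 and 1 fibroblast gene leaning to the hESC-named list, also 1 within 50 kb. Within 50 kb, 7 mesenchymal factors leaned to the hESC-named list, and at the stricter q 1 neural gene and 0 endoderm and mesoderm genes leaned to HFFc6. CTCF and cohesin genes gave 11 leaning to HFFc6 at equal numbers, and 3 (stricter q and without X) or 12 (within 50 kb) leaning to the hESC-named list. Housekeeping genes gave 4 to HFFc6 at the stricter q, and 1 (equal numbers and without X) or 6 (within 50 kb) to the hESC-named list. At the stricter q 11 HOX and 11 imprinted genes leaned to the hESC-named list. Imprinted genes gave 8 to HFFc6 and 11 to the hESC-named list at equal numbers, and 2 to HFFc6 within 50 kb.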

Other observations

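HOX genes, the homeobox clusters of axial patterning, leaned to each list in shares near those of all genes, but differed from them at gene starts. Of 39, 11 had more HFFc6-only regions, 19 more hESC-list-only regions and 9 equal numbers, beside 27.9% and 41.4% of all genes, and at equal numbers of regions 15 leaned each way. Of 20 HOX genes with a known start, 7 had a CTCF region there in both lists and 7 in neither. Over all 15812 genes with a start, 62.5% had one in both lists and 3586 genes had one in neither. HOXA9, HOXA11, HOXA13 and HOXD13, 4 of the 20 HOX genes, had it only in HFFc6, beside 7.04% of all genes with a start. HOXB1 and HOXD10 had it only in the hESC-named list, beside 7.73% of all genes with a start. Posterior genes of the clusters did not share a direction. The 4 genes are posterior, but so are HOXD10, HOXA10 and HOXD11 (both lists) and HOXD12 (neither). HOXC13, also posterior, had 5 hESC-list-only and 0 HFFc6-only regions.

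Imprinted genes, expressed from 1 parental copy, leaned to the hESC-named list in 17 of 26 and to HFFc6 in 5, beside 41.4% and 27.9% of all genes. At equal numbers of regions the counts were 11 and 8, and with −log10 q of at least 10 they were 11 and 6. SNRPN had 13 hESC-list-only and 0 HFFc6-only regions and its neighbour NDN 8 and 0, whereas NAP1L5 had 1 and 6 and IGF2R 5 and 10. Of 47 clustered protocadherins with a start in the table, 32 had a CTCF region there in both lists, 11 only in the hESC-named list, and PCDHGA5 and PCDHGA7 only in HFFc6. The shares over all 15812 genes were 62.5% in both, 7.73% only in the hESC-named list and 7.04% only in HFFc6.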
